A study of Mus musculus with 72 samples.

Results

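Ribosome biogenesis in the nucleolus was followed at the level of mRNA through 49 genes of the 55487 in the deposited count table. The genes were given as a list of names by their roles in ribosome assembly, drawn up when earlier results of these data were known, and all 49 matched 1 entry each. They comprised 4 genes of RNA polymerase I transcription (Polr1a, Polr1b, Polr1c and Rrn3), 7 of the small nucleolar ribonucleoproteins or snoRNPs (Fbl, Nop56, Nop58, Dkc1, Gar1, Nhp2 and Rrp9), 13 factors of the small ribosomal subunit, 17 of the large subunit and 8 multifunctional nucleolar proteins. The small subunit factors were Nop14, Wdr43, Utp4, Utp18, Utp20, Heatr1, Noc4l, Imp4, Rrp12, Bysl, Nob1, Tsr1 and Ddx10. The large subunit factors were Nop2, Nop16, Wdr74, Wdr12, Bop1, Pes1, Rrs1, Noc2l, Noc3l, Mrto4, Nle1, Ebna1bp2, Nip7, Ftsj3, Ddx18, Ddx56 and Grwd1. The multifunctional proteins were Ncl, Npm1, Nolc1, Gnl3, Lyar, Mybbp1a, Rrp1b and Ddx21.

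The study asked how different ways of inhibiting glutamine metabolism alter CD8+ T cells. The cells came from spleens of OT-I mice, a strain with a transgenic T cell receptor for the ovalbumin peptide SIINFEKL, after lysis of red cells. All stimulated cultures received the peptide at 10 ng/mL and recombinant human IL-2 at 100 IU/mL. They were grown with vehicle, with CB-839 at 1 µM (a glutaminase inhibitor), with DON at 1 µM (6-diazo-5-oxo-L-norleucine, a glutamine analog that inactivates glutamine-using enzymes), or in medium without glutamine, for 4, 24 or 48 h. An unstimulated group completed 13 RNA-seq groups of 4 libraries, A to D. The labels give that group no time, and they name DMSO and PBS as solvents but show a single vehicle group, so every treatment at a time was read against the same 4 vehicle libraries. They do not say whether the letters are separate mice or cultures, and p-values then measure the spread between these libraries, which may be technical. Histone marks at 48 h were mapped by CUT&RUN.

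A ribosome begins as a long precursor RNA that RNA polymerase I transcribes in the nucleolus. snoRNPs guide the methylation and pseudouridylation of this RNA, while many assembly factors, helicases and chaperones cut it and fold it with ribosomal proteins into the small and large subunits. Quiescent T cells hold few ribosomes, and antigen stimulation is known to enlarge the nucleolus before the cells divide. Many of these genes are textbook targets of the transcription factor MYC, which binds the E-box CACGTG.

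E-boxes were read in 300-base promoter windows, 250 bases before to 50 after the transcription start, from RefSeq on GRCm38.p6, the assembly also called mm10. Windows matched 44 members; Bop1, Fbl, Npm1, Rrp12 and Rrs1 were not matched. CACGTG, which reads the same on both strands, occurred in 12 of 44 member windows (27.3%), against 10% of the 10382 tested genes with a window and 7.15% of all 32851 windows. In the 250 bases before the start alone it occurred in 4 member windows (9.09%) against 8.23% of tested genes, so the difference in share lay in the 50 bases after the start. The 5 sites before the start, and the 3 after it that lie nearest to it, are printed because they show both positions. Each stands 5′ to 3′ on the gene's strand with the E-box in capitals.
Imp4: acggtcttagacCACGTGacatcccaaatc
Nop2: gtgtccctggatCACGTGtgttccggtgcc
Rrn3 distal: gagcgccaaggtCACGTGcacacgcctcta
Rrn3 proximal: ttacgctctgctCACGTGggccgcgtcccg
Utp18: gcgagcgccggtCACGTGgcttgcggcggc
Pes1: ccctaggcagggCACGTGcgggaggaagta
Utp4: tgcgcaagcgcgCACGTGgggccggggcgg
Wdr43: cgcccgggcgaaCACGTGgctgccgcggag

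The first base of the E-box stood 121 bases before the start of Imp4 (chr1:34439696-34439725, plus strand) and 60 before that of Nop2 (chr6:125131811-125131840, plus strand). Rrn3 carried 2 sites, 215 and 48 bases before its start (chr16:13780472-13780501 and chr16:13780639-13780668, plus strand), and Utp18 carried 1 at 20 bases (chr11:93885769-93885798, minus strand). Past the start, the E-box began at base 3 of the Pes1 transcript (chr11:3963965-3963994, plus strand), base 16 of Utp4 (chr8:106893643-106893672, plus strand) and base 18 of Wdr43 (chr17:71616220-71616249, plus strand). Nle1, Tsr1, Grwd1, Utp20 and Mybbp1a carried theirs at bases 24 to 41. The ETS core CCGGAA, or TTCCGG on the other strand, was in 21 of the 44 windows (47.7%) against 29% of tested genes; the printed Nop2 site holds it beside its E-box. A match to these letters is a description of the window and not a measured binding site.

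Libraries held 25.6 to 51 M counts. Levels are given as CPM, counts scaled to a common library size after TMM scaling, and differences as log2 fold changes from edgeR's quasi-likelihood test ± SE, called at an adjusted p under 0.05 over all genes tested; all 49 members passed the low-count filter in every fit. Vehicle library C at 48 h stood apart from its group mates, with a root mean square log2 difference of 0.314 to 0.455 from them, as did library C of glutamine-free medium at 4 h (0.328 to 0.469) and, less so, library D of DON at 24 h (0.249 to 0.257). The 8 CD8 T cell markers (Cd3e, Cd8a and others) were detected in all groups and took 0.163% to 0.553% of counts, and Cd4 stayed at or under 3.66e-4%. Counting did not use the strand, and 22 members overlap an exon of another gene, over more than 10% of their length for Tsr1 and Noc2l; Npm1 has processed pseudogenes that can share its reads.

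TPM divides counts by a gene's annotated exon length and by library size. In this unit Npm1 was the highest member in all 13 groups and Wdr12 the lowest. The length covers all annotated exons of a gene, not 1 transcript. It was 11955 bases for Wdr12, 10188 for Ncl, 2665 for Npm1 and 1146 for Nhp2, and the order rests on it. In CPM, Wdr12 (168) stood above Tsr1 (141) in vehicle cells at 48 h. There Ncl took 21.1% of the members' counts and Npm1 12.3%. Npm1 encodes the nucleolar chaperone nucleophosmin and Wdr12 a subunit of the PeBoW complex of the large subunit. In vehicle cells at 48 h Npm1 stood at 2264 ± 285 TPM (SD, n = 4), 77.8 times Wdr12 at 29.1 ± 4.84. Ncl, which encodes nucleolin, followed at 1017 ± 201 TPM and Nhp2, a core protein of pseudouridylating snoRNPs, at 1009 ± 51.9 TPM; these 2 did not differ beyond their spread. Noc3l (47.3 ± 12.8 TPM) and Utp20 (48.5 ± 13.7 TPM) were next above Wdr12 and did not differ from each other beyond theirs. The median over the 49 genes was 55.7 TPM in unstimulated cells, 168 TPM in vehicle cells at 48 h and 73.3 TPM with DON at 48 h.

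The 49 genes together took 0.6% to 0.641% of all counts in the 4 unstimulated libraries. After 4 h of stimulation with vehicle they took 3.03% to 3.16%, the highest of the vehicle times, followed by a mean of 2.53% at 24 h and 2.17% at 48 h. DON libraries overlapped the vehicle range at 4 h (3.02% to 3.2%) and lay below it at 48 h, with 1.26% to 1.36% against a vehicle range of 2.08% to 2.29%. Glutamine-free libraries stood between them at 48 h, at 1.66% to 1.7%, and CB-839 libraries lay at 1.94% to 2.06%. Ncl alone made up 13.6% of the members' counts in unstimulated cells and 23.1% in vehicle cells at 24 h. In these bulk samples, fewer cells of a type and less RNA per cell cannot be told apart.

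**Figure D1:**
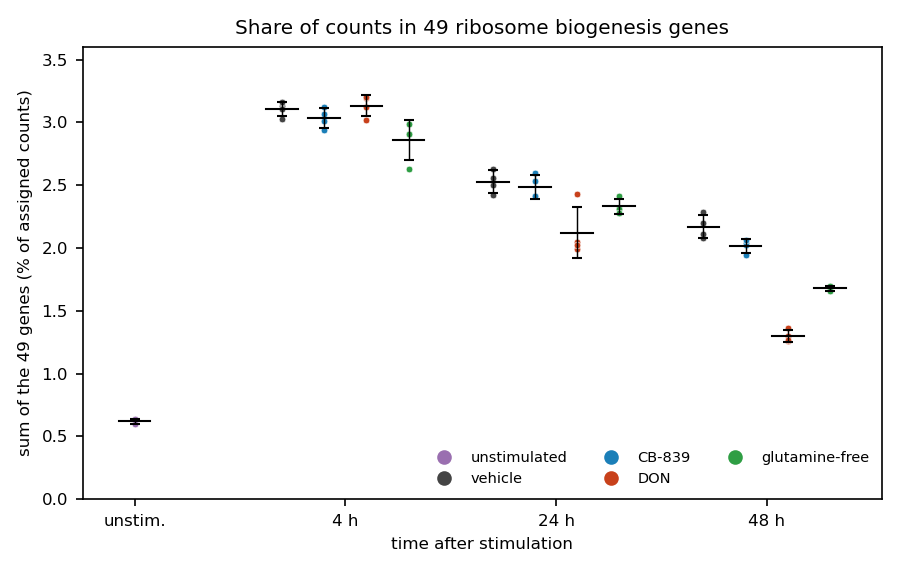
Share of all counts taken by the 49 genes (y axis, percent) in each RNA library (points), by group (x axis), with bars at group means. Unstimulated libraries lie at 0.6% to 0.641%; vehicle libraries at 48 h lie at 2.08% to 2.29% and DON libraries at 1.26% to 1.36%.

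Stimulation raised the whole set: every one of the 49 genes rose at 4 h, 24 h and 48 h in vehicle cultures against unstimulated cells, with no overlap between groups for any of them at any of these times. Overlap was not counted over all genes tested, so that count has no background share beside it. The background was high as well: 33.9% of the genes tested rose and 41% fell at 4 h, 38.7% and 45.5% at 24 h, and 38.3% and 45.1% at 48 h. No member fell, at an unadjusted p under 0.05 or with DESeq2. The members' median log2 fold change was 2.48 at 4 h, 2.08 at 24 h and 1.85 at 48 h, beside -0.21, -0.18 and -0.16 over all genes tested. With library totals in place of TMM these were 2.24, 1.78 and 1.58 beside -0.45, -0.48 and -0.44. Markers of cell types moved in the same comparisons. The 8 CD8 T cell markers summed to 0.523% to 0.553% of counts in unstimulated cells and to 0.203% to 0.216%, 0.194% to 0.2% and 0.292% to 0.307% at 4, 24 and 48 h. Against that sum, Trac was higher at 4 h than unstimulated (575 ± 27.6 against 348 ± 30.2 CPM), and Cd2 and Thy1 were higher at 48 h. The 8 B cell markers went from 0.146% to 0.173% unstimulated to 0.162% to 0.225% at 4 h, 0.0368% to 0.0384% at 24 h and 0.0489% to 0.054% at 48 h, and the 8 myeloid markers from 0.00255% to 0.0168% to 0.00206% to 0.00989%, 2.94e-4% to 4.69e-4% and 2.17e-4% to 3.13e-4%. Their part in the members' values was not tested.

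Polr1b, which encodes a large catalytic subunit of RNA polymerase I, stood at 51, 50.7, 57.4 and 46.5 CPM in unstimulated libraries A to D. At 4 h it stood at 478, 451, 419 and 455 CPM, above all 4 unstimulated values, a log2 fold change of 3.09 ± 0.07 (edgeR adjusted p = 7.1e-18). It was lower later, at 264, 265, 240 and 262 CPM at 24 h and 203, 198, 182 and 205 CPM at 48 h, and each of these ranges stood apart from the others. Nop56, a core protein of box C/D snoRNPs, stood at 181, 171, 192 and 161 CPM before stimulation and at 1071, 1042, 960 and 1014 CPM at 4 h (2.49 ± 0.07, edgeR adjusted p = 6.96e-17). Its 24 h values were 887, 882, 854 and 889 CPM, all under those of 4 h and far above the unstimulated ones.

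Ncl stood at 687, 709, 820 and 574 CPM in unstimulated libraries and at 6280, 6301, 5783 and 6134 CPM at 4 h, a log2 fold change of 3.10 ± 0.09 (edgeR adjusted p = 1.65e-16). At 24 h the libraries stood at 5939, 6369, 6557 and 6865 CPM, a range that overlapped that of 4 h. The largest log2 fold changes at 4 h were those of Rrp1b (3.24 ± 0.07), a protein phosphatase targeting subunit of the nucleolus, Noc4l (3.21 ± 0.10) and Nop16 (3.19 ± 0.08). The smallest were those of Nob1 (1.54 ± 0.07), the endonuclease that makes the mature 3′ end of 18S rRNA, Rrn3 (1.69 ± 0.09), the factor that brings RNA polymerase I to its promoter, and Wdr74 (1.80 ± 0.09).

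At 24 h the largest changes against unstimulated cells were in Ncl (3.09), Nhp2 (3.03) and Lyar (3.02), a nucleolar zinc finger protein, and the smallest in Nob1 (1.18), Nle1 (1.15) and the helicase gene Ddx10 (0.96). At 48 h they were in Nhp2 (2.82), Lyar (2.74) and Ncl (2.70), and in Polr1c (1.05), Nle1 (0.99) and Ddx10 (0.98). From 4 h to 24 h of vehicle culture, 41 members fell and 3 rose, against 37.8% and 36.4% of the genes tested. Npm1 rose by 0.49 ± 0.08 on the log2 scale (edgeR adjusted p = 2.79e-05), Rrn3 by 0.22 and Lyar by 0.19; with RLE scaling, with DESeq2 or without vehicle library C of 4 h, Npm1 was the 1 member that rose. In contrast, Nle1 fell by 1.16, Rrp9 by 1.05 and Fbl, the methyltransferase fibrillarin, by 1.00. From 24 h to 48 h, 25 members fell and 1 rose, against 16.8% and 15.6% of the genes tested; without vehicle library D of 48 h the count that fell was 15. Tsr1 fell by 0.53, and Rrp12 and Heatr1 by 0.41 each, while Noc4l rose by 0.27.

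Most other genes of the pathway rose with them at 4 h. Against 33.9% of all genes tested rising and 41% falling, of 36 further small subunit factors 35 rose and none fell, of 38 further large subunit factors 36 rose and 1 fell, and of 11 snoRNP assembly factors 10 rose and 1 fell, with median log2 fold changes of 1.85, 1.51 and 1.97. Other RNA polymerase I genes rose in 11 of 15 cases and fell in 4. Of the 79 genes for cytosolic ribosomal proteins 28 rose, a share near that of all genes, and 9 fell, with a median of 0.18. Myc, named here after its values were seen, rose from 96.2 ± 9.3 CPM to 1267 ± 68.2 CPM at 4 h (SD, n = 4 each), and stood at 433 ± 49.2 CPM at 24 h.

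**Figure D2:**
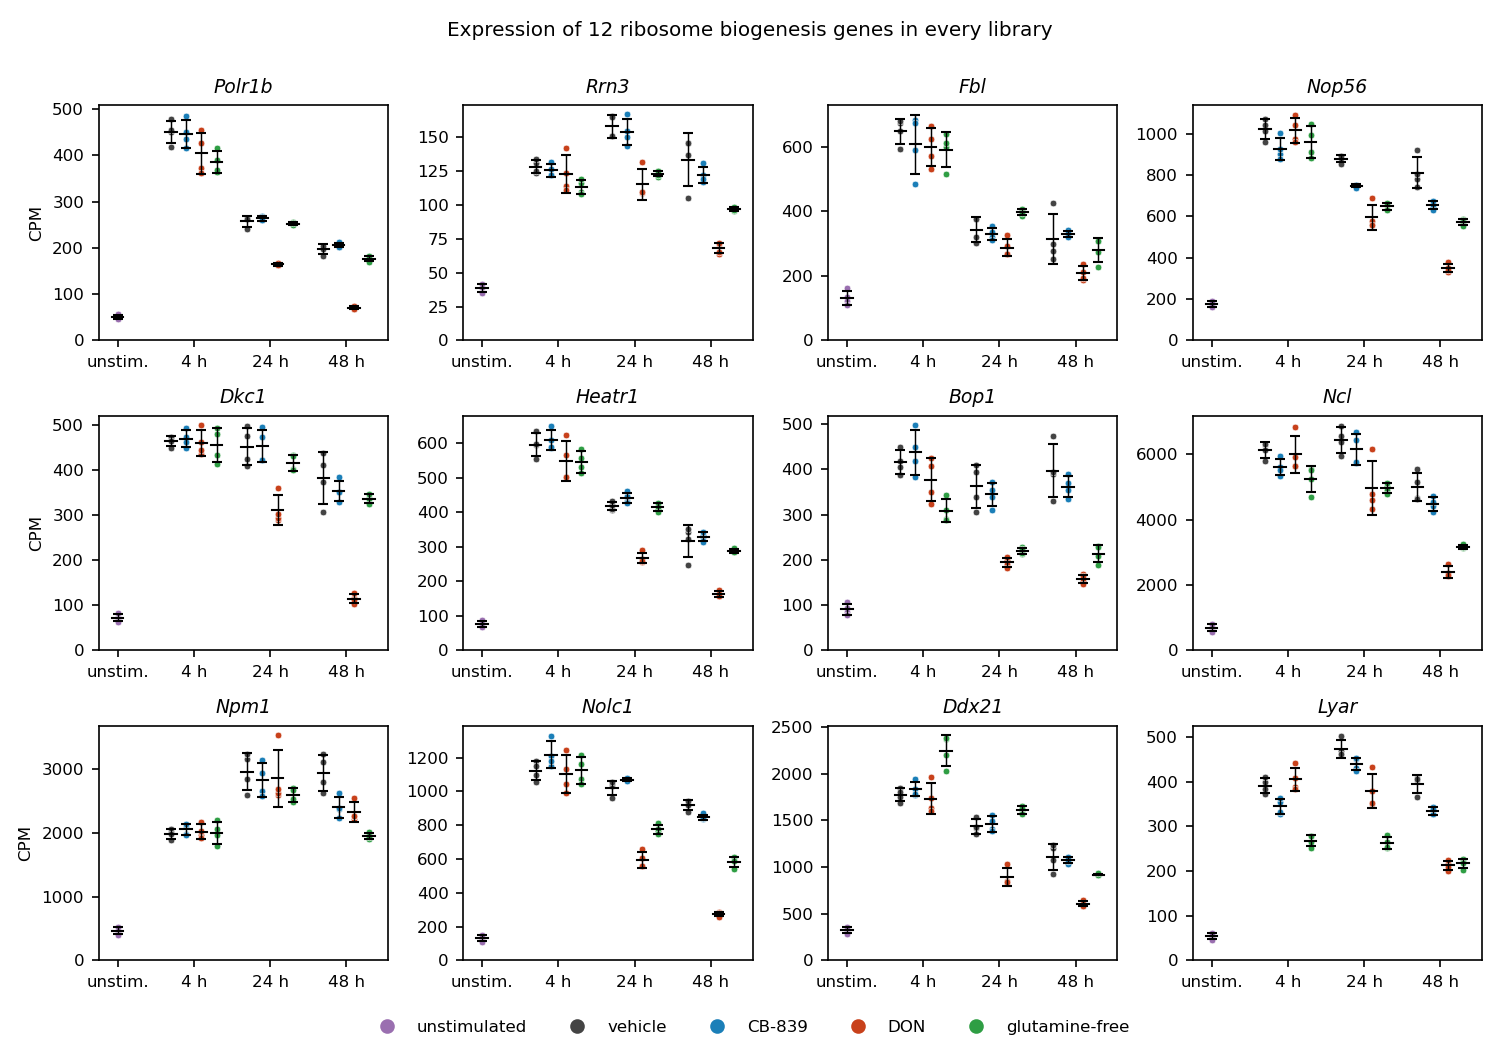
CPM (y axes) of the 12 genes printed by library in each of the 13 RNA groups (x axes), points for libraries and bars for means. All 12 genes were lowest in unstimulated cells, and with DON they were near vehicle at 4 h and below it at 48 h.

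At 4 h the inhibitors had changed few of these genes. DON changed 0 of 49 in either direction and 0% of all genes tested were called higher or lower; no member passed an unadjusted p under 0.05, and DESeq2 called none. The members' log2 fold changes ran from -0.13 to 0.08. Polr1b stood at 455, 426, 373 and 363 CPM with DON and at 478, 451, 419 and 455 CPM with vehicle, 2 overlapping ranges. CB-839 lowered Lyar (-0.20 ± 0.05, edgeR adjusted p = 0.0196) and no other member, against 6.64% of tested genes called lower and 5.85% higher; 3 members passed an unadjusted p under 0.05 as higher and 5 as lower. With library totals 5 members were called higher and 5 lower. The Lyar call was lost without CB-839 library C or D, without vehicle library A or B, and in the fit of all 52 libraries (edgeR adjusted p from 0.0631 to 0.157). Libraries of the same letter deviated together in this comparison, and with the letter as a block Ddx56 (-0.20, edgeR adjusted p = 0.0347) and Nop56 (-0.16, edgeR adjusted p = 0.0424) were lower too.

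Glutamine-free medium, against the same vehicle libraries, changed more of the list at 4 h: 19 members fell and 4 rose, where 21.4% of the genes tested fell and 16.2% rose. Lyar stood at 279, 265, 251 and 278 CPM without glutamine and at 400, 410, 372 and 383 CPM with vehicle, with no overlap (-0.52 ± 0.05, edgeR adjusted p = 5.47e-07). Ebna1bp2, a large subunit factor, fell by 0.69 and Mybbp1a, a MYB-binding nucleolar protein, by 0.56. Bop1, a scaffold of the PeBoW complex, stood at 311, 291, 289 and 344 CPM against 450, 419, 387 and 405 CPM in vehicle libraries, also without overlap. In the other direction, Ddx21, a helicase that acts on both snoRNAs and RNA polymerase I and II transcription, stood at 2370, 2196, 2029 and 2378 CPM against 1850, 1801, 1687 and 1749 CPM (0.37 ± 0.06, edgeR adjusted p = 0.000149). Nop14 rose by 0.26, Pes1 by 0.19 and Noc3l by 0.16; in the fit of all 52 libraries these stood at 0.18, 0.10 and 0.07 and none of the 3 was called. The large subunit group, the largest role of the list, held 9 of the 19 members that fell, and differences between roles were not tested. The rising count was lowest, at 2, without vehicle library C, or without glutamine-free library A or D. It was highest, at 7, without the outlying glutamine-free library C.

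DON lowered nearly the whole set by 24 h. There, 46 of 49 members fell and none rose, where 29.9% of the genes tested fell and 28.1% rose, and the members' median log2 fold change was -0.54 against -0.01 over all genes tested. All 17 large subunit genes and all 7 snoRNP genes fell, with 12 of 13 small subunit genes, 7 of 8 multifunctional genes and 3 of 4 RNA polymerase I genes. No member passed an unadjusted p under 0.05 as higher. Ranges of DON and vehicle did not overlap for 41 members, a count that was not made over all genes tested. Library totals in place of TMM moved the median of all genes with DON at 24 h from -0.01 to 0.18, and under that scaling 39 members fell and 1 rose, with 70.5% in place of 48.4% of all called genes higher. Ncl (-0.16), Lyar (-0.11) and Fbl (-0.04) were among the members no longer called. In the same comparison the CD8 T cell markers summed to 0.264% to 0.286% of counts with DON and 0.194% to 0.2% with vehicle. Of these, Cd3e, Cd8a and Cd8b1 were higher with DON and Trac was lower, without overlap, and the other ranges overlapped. The B cell markers summed to 0.045% to 0.0647% and 0.0368% to 0.0384%, and the myeloid markers to 0.00107% to 0.00225% and 2.94e-4% to 4.69e-4%. Their part in the members' values was not tested.

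Rrp12, a factor needed for export of the pre-ribosomal subunits, changed most at 24 h. It stood at 153, 159, 153 and 182 CPM with DON against 352, 353, 284 and 306 CPM with vehicle, a log2 fold change of -0.97 ± 0.07 (edgeR adjusted p = 1.61e-09), with no overlap. Bop1 fell by 0.87, standing at 199, 206, 190 and 183 CPM against 409, 395, 306 and 340 CPM. Rrp9, the box C/D snoRNP protein of U3, fell by 0.85. Nolc1, a phosphoprotein that chaperones snoRNPs, stood at 561, 605, 560 and 660 CPM against 1032, 1041, 961 and 1054 CPM (-0.75 ± 0.06, edgeR adjusted p = 1.88e-09).

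Library D of DON at 24 h was the highest of its group for many members. Ncl stood at 4318, 4767, 4584 and 6156 CPM, so that D overlapped the vehicle libraries at 5939 to 6865 CPM (-0.35 ± 0.09, edgeR adjusted p = 0.00261; -0.16, adjusted p = 0.124, with library totals). Ddx21 stood at 834, 851, 836 and 1033 CPM, still under the vehicle minimum of 1356 CPM. Npm1 did not pass the test (-0.02 ± 0.10, edgeR adjusted p = 0.859): its DON libraries stood at 2591, 2615, 2693 and 3524 CPM and its vehicle libraries at 2593, 2848, 3152 and 3238 CPM. Nob1 (-0.10 ± 0.05) and Polr1c (0.14 ± 0.09) were the other members not called. Same-letter libraries deviated together in this comparison, and with the letter as a block 47 members were lower and Polr1c was higher (0.14, edgeR adjusted p = 0.0398); Polr1c was also called higher without library D (0.23, edgeR adjusted p = 0.0121).

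Without glutamine, the list split at 24 h: 25 members fell and 7 rose, against 28.9% and 30% of the genes tested. Lyar fell by 0.81 ± 0.07 (edgeR adjusted p = 2.45e-09), with 252, 265, 255 and 280 CPM against 460, 469, 463 and 503 CPM in vehicle libraries. Bop1 fell by 0.68 and Mybbp1a by 0.67. Ddx10 rose by 0.41 ± 0.08 (edgeR adjusted p = 0.000115), Noc3l by 0.30, Nop14 by 0.27, Fbl by 0.25, Pes1 by 0.23, Ddx21 by 0.21 and Gar1 by 0.18. Fbl (0.18) and Gar1 (0.12) were not called without vehicle library C, and Fbl, Pes1, Ddx21 and Gar1 were not called in the fit of all 52 libraries. Fbl stood at 405, 406, 384 and 394 CPM without glutamine, all above the vehicle values of 375, 375, 303 and 320 CPM, while with DON it stood lower, at 266, 292, 267 and 325 CPM. Of the large subunit factors 12 fell and 2 rose, and of the small subunit factors 4 fell and 2 rose. With library totals, 23 members fell and 11 rose, and 61.4% in place of 51% of all called genes were higher.

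CB-839 left the list near vehicle at 24 h. Nop56 fell (-0.22 ± 0.06, edgeR adjusted p = 0.0403), with 738 to 752 CPM against 854 to 889 CPM, and no other member was called. Over all genes tested, 2.48% fell and 2.47% rose; 0 members passed an unadjusted p under 0.05 as higher and 6 as lower. Leaving out any 1 library other than vehicle library C gave 0 lower members, and leaving out that library gave 4. Same-letter libraries deviated together here too, and with the letter as a block Nop56, Noc2l (-0.19, edgeR adjusted p = 0.0156), Nle1 (-0.20, edgeR adjusted p = 0.0278) and Ddx56 (-0.13, edgeR adjusted p = 0.0421) were lower.

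**Figure D3:**
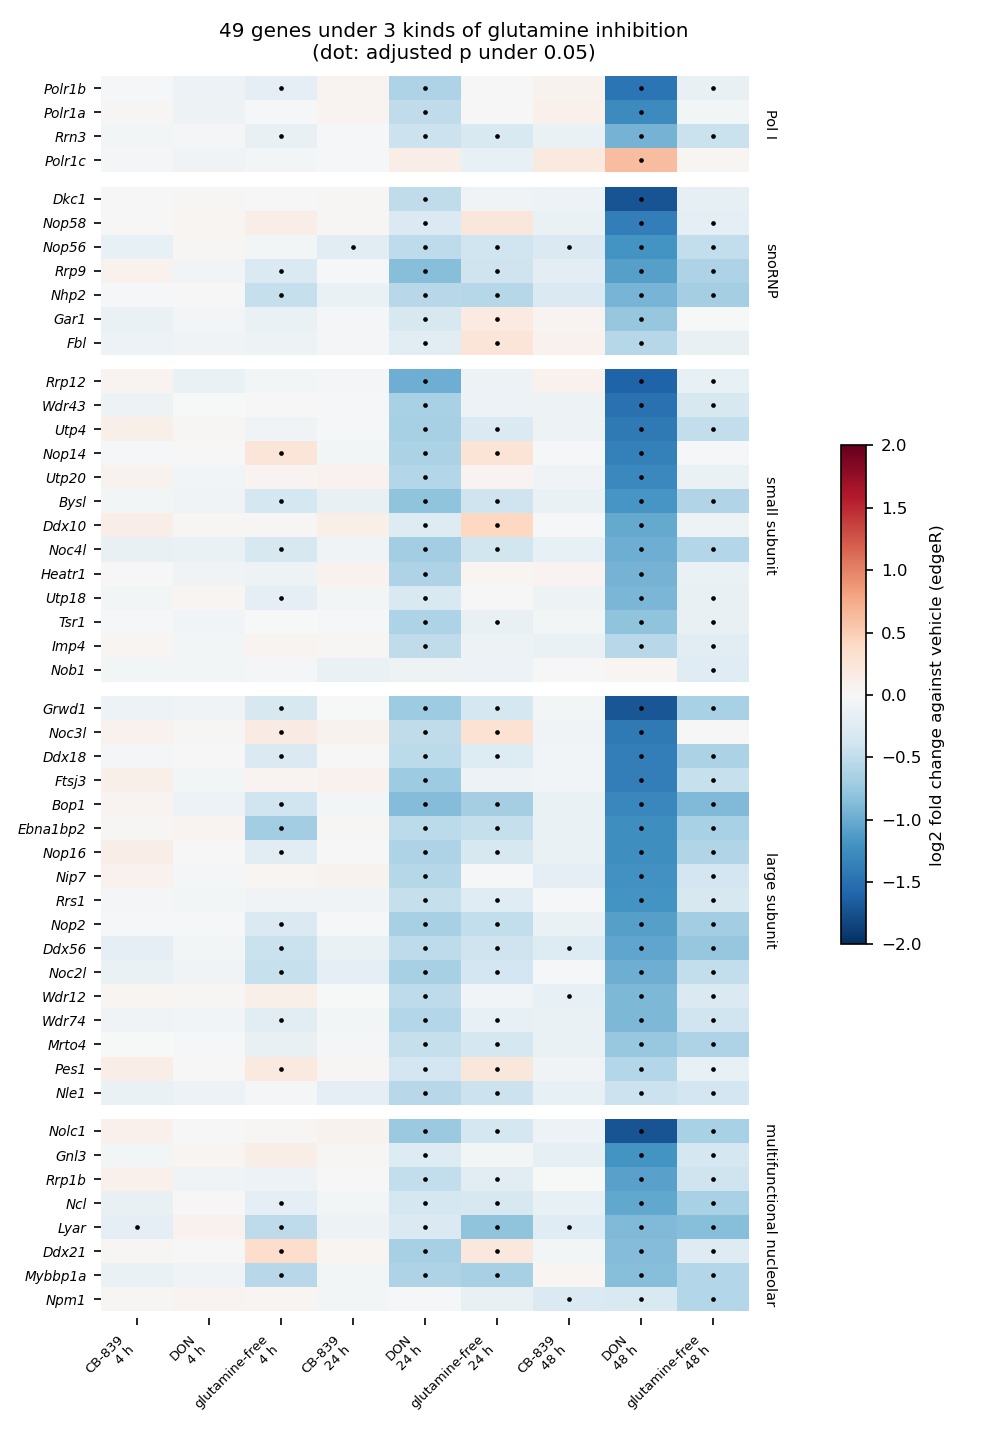
Log2 fold change against vehicle (colour, edgeR) of each of the 49 genes (rows, grouped by role) under CB-839, DON and glutamine-free medium at 4, 24 and 48 h (columns); a dot marks an adjusted p under 0.05. The DON column at 48 h holds 47 dots on lowered genes and 1, for Polr1c, on a raised gene; the DON column at 4 h holds none.

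After 48 h of DON, 47 members were lower, 28 of them by 2-fold or more, and 1 was higher, where 35.6% of the genes tested fell and 35.6% rose. The members' median log2 fold change was -1.08, against 0.00 over all genes tested. The ranges did not overlap for 48 of the 49, a count that was not made over all genes tested. Leaving out any 1 of the 8 libraries left the counts of lower and higher members at 47 and 1. With library totals the median of all genes was 0.19 and that of the members -0.89, with 46 lower, 2 higher and 62.8% in place of 50% of all called genes higher.

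In the RNA polymerase I group, Polr1b stood at 68.9, 74.8, 70.5 and 68.4 CPM with DON against 203, 198, 182 and 205 CPM with vehicle, 2.76-fold lower (log2 fold change -1.46 ± 0.05, edgeR adjusted p = 2.45e-14). These DON values were above the unstimulated range of 46.5 to 57.4 CPM. Polr1a, the largest subunit, fell by 1.28. Rrn3 stood at 64.2, 71.3, 71.9 and 65.7 CPM against 146, 146, 105 and 137 CPM, without overlap although vehicle library C was the lowest of its group (-0.95 ± 0.09, edgeR adjusted p = 9.89e-09).

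Polr1c went the other way. It encodes a subunit shared by RNA polymerases I and III (chr17:46243920-46248054, minus strand, mm10), and it stood at 301, 292, 284 and 255 CPM with DON against 181, 165, 210 and 192 CPM with vehicle. All 4 DON libraries were above all 4 vehicle libraries (0.62 ± 0.07, edgeR adjusted p = 3.74e-07), and also above the 185 to 205 CPM of glutamine-free medium at 24 h and its 170 to 203 CPM at 48 h. The DON libraries had stood at 244 to 294 CPM at 4 h and the vehicle libraries at 281 to 319 CPM, so the 48 h ranges overlap the 4 h ones for DON and not for vehicle; that course was not tested within DON. No exon of Polr1c overlaps another annotated gene.

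Among snoRNP genes, Dkc1, the pseudouridine synthase dyskerin (chrX:75095854-75109777, plus strand, mm10), stood at 103, 117, 127 and 111 CPM with DON against 413, 438, 307 and 375 CPM with vehicle, 3.31-fold lower (-1.73 ± 0.09, edgeR adjusted p = 7.91e-12). Its DON libraries remained above the unstimulated 62.9 to 83 CPM. Nop56 stood at 329, 349, 378 and 341 CPM against 782, 802, 918 and 742 CPM (-1.20 ± 0.06), and its partner Nop58 fell by 1.38. Fbl, the catalytic member of the same complex, changed less, with 237, 213, 188 and 193 CPM against 276, 252, 426 and 297 CPM (-0.57 ± 0.13, edgeR adjusted p = 0.000597). Library C was the highest of the vehicle group for Fbl and the lowest for Dkc1. Nhp2 fell by 0.93 and Gar1 by 0.77, so the 3 listed genes of the pseudouridylation complex, Dkc1 included, were all lower in mRNA.

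Small subunit factors were lower in 12 of 13 cases, against 35.6% of the genes tested. The factors had a median log2 fold change of -1.03. Rrp12 stood at 81.8, 84.2, 74.7 and 76.5 CPM against 251, 234, 250 and 248 CPM (-1.62 ± 0.06, edgeR adjusted p = 4.61e-14), with no overlap. Wdr43 fell by 1.50 and Utp4 by 1.43; both belong to the t-UTP complex that joins the precursor RNA first. Heatr1, of the same complex, stood at 157, 162, 175 and 158 CPM against 343, 353, 248 and 324 CPM (-0.95 ± 0.08). Nob1 was the member that did not pass the test, with 201, 189, 183 and 180 CPM against 179, 172, 210 and 183 CPM, 2 overlapping ranges (0.04 ± 0.06, edgeR adjusted p = 0.586). With library totals Nob1 was called higher, at 0.23.

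All 17 large subunit factors were lower with DON at 48 h, where 35.6% of the genes tested fell. Their median was -1.20 and their range from -1.71 to -0.43. Grwd1, a histone-binding protein of pre-60S particles, stood at 48.6, 51.9, 48.1 and 48 CPM against 162, 144, 183 and 163 CPM, 3.27-fold lower (-1.71 ± 0.07, edgeR adjusted p = 8.26e-14). That is close to its unstimulated range of 31.8 to 45.2 CPM but above it. Bop1 stood at 168, 164, 153 and 147 CPM against 389, 330, 474 and 395 CPM (-1.31 ± 0.09), while its PeBoW partners Wdr12 fell by 0.90 and Pes1 by 0.59. Nle1, which helps release pre-60S factors, fell the least of the group, by 0.43.

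The genes of all 8 multifunctional proteins were lower, Npm1 not under library totals, beside 35.6% of all genes tested. Nolc1 (chr19:46075863-46085530, plus strand, mm10) stood at 273, 287, 282 and 255 CPM against 942, 918, 942 and 876 CPM, 3.32-fold lower (-1.73 ± 0.05, edgeR adjusted p = 2.56e-15). Ncl stood at 2283, 2354, 2655 and 2291 CPM against 5136, 5537, 4657 and 4630 CPM (-1.04 ± 0.07, edgeR adjusted p = 9.14e-11). Npm1 fell least, with 2214, 2258, 2549 and 2260 CPM against 2791, 3115, 3227 and 2616 CPM (-0.32 ± 0.07, edgeR adjusted p = 0.000336; -0.13, adjusted p = 0.0797, with library totals). The DON libraries were the lower group for Npm1 without overlap, with library C of DON the nearest to the vehicle values.

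Lyar and Ddx21 also fell without overlap. Lyar stood at 201, 216, 225 and 209 CPM with DON against 403, 409, 405 and 365 CPM, a log2 fold change of -0.88 ± 0.05. Ddx21 stood at 585, 606, 644 and 586 CPM against 1200, 1236, 930 and 1075 CPM (-0.86 ± 0.07), with vehicle library C the lowest of its group. Markers of other cells moved in the same comparison: the 8 myeloid markers summed to 0.0024% to 0.00282% of counts with DON and to 2.17e-4% to 3.13e-4% with vehicle, where 3 of the 8, Adgre1, C1qa and S100a8, were at 0. Most of that sum was Cd68, at 22.1 ± 1.18 CPM with DON and 2.34 ± 0.464 CPM with vehicle. The 8 B cell markers summed to 0.0713% to 0.0769% with DON and to 0.0489% to 0.054% with vehicle, and Ms4a1 was at 0 in the vehicle group; nearly all of it was Ighm, at 693 ± 26.9 and 552 ± 27.8 CPM (SD, n = 4 each). CD8 T cell markers summed to 0.35% to 0.359% with DON and 0.292% to 0.307% with vehicle, but single markers moved in both directions. Higher with DON without overlap were Cd8a (1105 ± 24.1 against 651 ± 2.71 CPM), Cd8b1, Cd3d and Cd3e. Lower without overlap were Cd2 (148 ± 4.53 against 393 ± 31.1 CPM), Thy1 (643 ± 23.4 against 993 ± 117 CPM) and Trac, while Cd3g overlapped. The part of all these markers in the members' values was not tested.

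**Figure D4:**
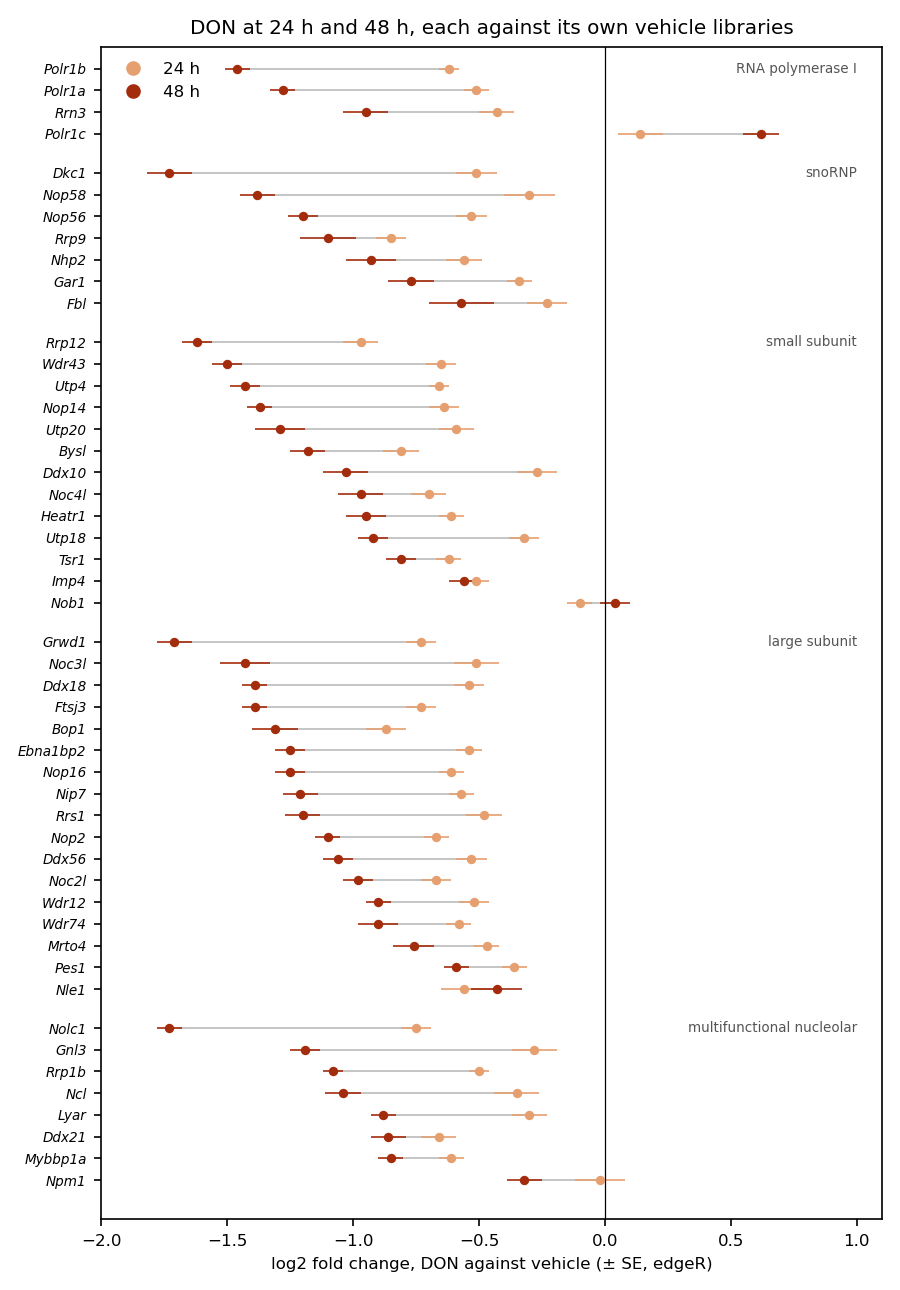
Log2 fold change of DON against vehicle (x axis, points with SE, edgeR) at 24 h (light) and 48 h (dark) for each of the 49 genes (y axis, by role). Most points move left from 24 h to 48 h, Dkc1 from -0.51 to -1.73, while Polr1c moves right from 0.14 to 0.62.

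The fall under DON deepened with time. In the test of the DON effect at 48 h minus that at 24 h, 42 members were lower and 1 higher, against 22.1% and 18.2% of the genes tested, with a median of -0.60. Dkc1 had the largest difference (-1.23, edgeR adjusted p = 1.39e-09), followed by Nop58 (-1.09, edgeR adjusted p = 2.81e-08) and Nolc1 (-0.99, edgeR adjusted p = 2.44e-12). Polr1c differed upward by 0.46 (edgeR adjusted p = 0.00236). For glutamine-free medium 19 members differed downward between the times and none upward, against 12.6% and 16.5% of the genes tested, with 0 upward at an unadjusted p under 0.05; Ddx10 (-0.51), Ddx21 (-0.47) and Npm1 (-0.42) led. The downward count was 8 without the low-count filter and 9 in the fit of all 52 libraries. For CB-839 no member differed, against 1.23% of the genes tested downward and 2.27% upward; 2 members passed an unadjusted p under 0.05 as lower and 1 as higher, and DESeq2 called none.

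Glutamine-free medium at 48 h lowered 39 members and raised none, where 26.3% of the genes tested fell and 28% rose; 0 passed an unadjusted p under 0.05 as higher. The members' median log2 fold change was -0.37, against 0.02 over all genes tested, and no member reached 2-fold. With library totals 31 members were lower and 0 higher, and 63.5% in place of 51.6% of all called genes were higher. Bop1 changed most, with 208, 231, 228 and 189 CPM against 389, 330, 474 and 395 CPM in vehicle libraries, without overlap (-0.88 ± 0.09, edgeR adjusted p = 8.83e-08). Lyar stood at 226, 223, 219 and 203 CPM against 403, 409, 405 and 365 CPM (-0.85 ± 0.05), and Ddx56, a helicase of the large subunit, fell by 0.77.

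By role, the medians without glutamine ranged from -0.10 to -0.58, and differences between roles were not tested. The counts by role stand beside 26.3% of all genes tested that fell. Of 17 large subunit genes 16 fell, with a median of -0.49. All 8 genes of multifunctional proteins fell (Ddx21 not under library totals, at -0.17), with a median of -0.58, Nolc1 standing at 592, 611, 590 and 542 CPM. Small subunit factors had a median of -0.17, with 9 of 13 lower, and snoRNP genes a median of -0.19, with 4 of 7 lower. Dkc1, which DON had lowered 3.31-fold, stood at 339, 337, 325 and 348 CPM and was not called (-0.18 ± 0.09, edgeR adjusted p = 0.108), but was called without vehicle library C (-0.28, edgeR adjusted p = 0.00107). Heatr1 stood at 287, 286, 285 and 298 CPM, above the 248 CPM of vehicle library C and under the other vehicle libraries (-0.13 ± 0.08, edgeR adjusted p = 0.208); without vehicle library C it was called lower (-0.24, edgeR adjusted p = 0.000278). Polr1b, at 177, 178, 182 and 170 CPM, was slightly lower (-0.15 ± 0.05, edgeR adjusted p = 0.0196). That call was lost with library totals (-0.05, edgeR adjusted p = 0.519), in 4 other fits and on leaving out vehicle library A, B or D or glutamine-free library D (edgeR adjusted p from 0.0558 to 0.0633). Polr1c, Noc3l and Gar1 were not called and lay within 0.04 of 0 on the log2 scale.

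CB-839 at 48 h lowered 5 members and raised none, where 6.73% of the genes tested fell and 8.5% rose; at an unadjusted p under 0.05, 14 were lower and 1 higher. Nop56 stood at 660, 645, 675 and 631 CPM against 782, 802, 918 and 742 CPM, without overlap (-0.31 ± 0.06, edgeR adjusted p = 0.00154). Npm1 fell by 0.29 (edgeR adjusted p = 0.00713), with 2228 to 2624 CPM, and Ddx56, Wdr12 and Lyar were the remaining members called. Nhp2 had a like difference (-0.30) but missed the threshold (edgeR adjusted p = 0.0537). Without vehicle library C 11 members fell and 2, Fbl and Polr1c, rose.

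The drugs at the same dose of 1 µM, and medium without glutamine, were also tested directly against each other. CB-839 inhibits glutaminase, whereas DON is an analog of glutamine itself. DON was lower than CB-839 for 46 members at 24 h and higher for 0 (0 at an unadjusted p under 0.05), against 30.8% and 29% of the genes tested; Rrp12 differed most (-0.93), then Nolc1 and Rrp9 (-0.82 each). Npm1 (0.03 ± 0.10), Nob1 (0.03 ± 0.05) and Polr1c (0.16 ± 0.09) did not pass this test; with the letter as a block, which pairs these libraries, Polr1c was higher (0.15, edgeR adjusted p = 0.0227). At 48 h DON was lower for 46 and higher for 1, Polr1c (0.43 ± 0.07, edgeR adjusted p = 3.18e-05), against 34.7% and 35.7% of the genes tested, and Rrp12 (-1.70), Grwd1 (-1.66) and Dkc1 (-1.61) differed most. With library totals the counts were 39 lower and 2 higher at 24 h and 45 and 2 at 48 h, and the share of all called genes that were higher was 68.3% in place of 48.5% and 62.7% in place of 50.7%.

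Against CB-839, glutamine-free cultures were lower for 24 members and higher for 7 at 24 h, where 28.9% of the genes tested were lower and 29.1% higher; with library totals these counts were 18 and 9, with 60.3% in place of 50.2% of all called genes higher. Lyar (-0.71), Mybbp1a (-0.62) and Bop1 (-0.61) were lowest and Nop14 (0.32) highest. At 48 h 32 were lower and 0 higher (0 at an unadjusted p under 0.05), against 24.4% and 26.6%; with library totals 26 were lower and 0 higher, with 62.7% in place of 52.1% of called genes higher. Against DON, glutamine-free cultures were higher for 37 members and lower for 2 at 24 h, where 28.7% of the genes tested were higher and 30.2% lower; Nop14 (0.91), Ddx21 (0.87) and Rrp12 (0.87) were highest, while Lyar (-0.51) and Polr1c (-0.30) were lower. For this pair at 24 h, too, same-letter libraries deviated together, and Ddx56, Nle1, Nop56 and Rrn3 were higher as well with the letter as a block. At 48 h 43 were higher and 3 lower, against 34.6% and 34.1%, with Dkc1 (1.55), Rrp12 (1.45) and Noc3l (1.44) highest and Polr1c (-0.57), Nob1 (-0.27) and Npm1 (-0.26) lower. These comparisons share libraries with those against vehicle and are no independent measurement.

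The rest of the pathway, from lists drawn up with earlier results of these data known, was lower with DON at 48 h too, where 35.6% of all genes tested fell and 35.6% rose. Of 36 other small subunit factors 35 fell and none rose (median log2 fold change -0.81), Pdcd11 by 1.35 and Pwp2 by 1.19. Of 38 other large subunit factors 32 fell and 4 rose (median -0.85), and Ddx24 fell by 1.28 and the GTPase gene Lsg1 by 1.23. Other RNA polymerase I genes fell in 10 of 15 cases and rose in none, among them Polr1e by 1.11 and Cd3eap by 1.41, and snoRNP assembly factors fell in 9 of 11 and rose in none, with Naf1 lower by 1.53. The exosome, which trims the precursor RNA, fell in 11 of 13 genes and rose in none (median -0.72).

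Other lists had medians nearer 0 with DON at 48 h, where 35.6% of all genes tested fell and 35.6% rose. RNA polymerase II subunits fell in 9 of 13 cases and rose in 1, and RNA polymerase III subunits fell in 7 of 11 and rose in 2, with medians of -0.44 and -0.56. The 79 cytosolic ribosomal protein genes had a median of 0.01 with DON at 48 h, 17 falling and 8 rising, and of -0.20 without glutamine, 21 falling and 3 rising, against 26.3% and 28% of all genes. In the MYC and MAX network 5 of 11 genes fell and 4 rose with DON, shares near those of all genes. Mxd4, which encodes a MAX partner that represses E-box genes, rose by 4.87 with DON and 2.48 without glutamine. Myc itself stood at 283 ± 12.5 CPM with DON, 454 ± 15.6 CPM with vehicle and 425 ± 24.7 CPM without glutamine at 48 h (SD, n = 4 each); the DON difference was -0.66 ± 0.06 (edgeR adjusted p = 9.46e-09) and the glutamine-free one -0.09 ± 0.06 (edgeR adjusted p = 0.225). At 24 h the DON difference was 0.10 ± 0.08 for Myc (edgeR adjusted p = 0.319), 2.51 ± 0.17 for Mxd4 (edgeR adjusted p = 4.19e-10), 0.93 ± 0.10 for Mxd1 (edgeR adjusted p = 2.88e-07) and 0.91 ± 0.24 for Mycn (edgeR adjusted p = 0.00297). Without glutamine at 24 h it was 0.32 ± 0.08 for Myc (edgeR adjusted p = 0.00292) and 2.86 ± 0.17 for Mxd4 (edgeR adjusted p = 2.24e-11). For Mxd1 it was 0.31 ± 0.11 (edgeR adjusted p = 0.0169) and for Mycn -0.09 ± 0.26 (edgeR adjusted p = 0.789). Mxd3 and Mxi1 went opposite to Mxd4 there, at -2.77 ± 0.17 (edgeR adjusted p = 2.77e-11) and -0.72 ± 0.11 (edgeR adjusted p = 9.37e-06). With DON at 24 h Mxd3 stood at -0.35 ± 0.14 (edgeR adjusted p = 0.0376) and Mxi1 at 0.55 ± 0.10 (edgeR adjusted p = 0.000128). The members' median at 24 h was -0.16 without glutamine and -0.54 with DON. The part of these factors in the members' values was not tested.

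Members with an E-box in the window had a median log2 fold change of -0.94 with DON at 48 h (12 genes) and those without of -1.09 (32 genes); without glutamine the medians were -0.35 and -0.41. The sites printed above sit in genes that fell strongly with DON, such as Utp4 (-1.43), and in genes that fell less, such as Pes1 (-0.59) and Imp4 (-0.56).

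Promoters of the list were next read for histone marks at 48 h, taking 1000 bases either side of the annotated start. H3K27ac marks active promoters and enhancers and H3K27me3 marks Polycomb-repressed ones. One peak list per treatment and mark was deposited, from 2 replicates merged, so there is no replicate test. In the vehicle list 30 of 49 members had an H3K27ac peak, against 42% of the 16173 genes tested at 48 h. In the glutamine-free list 20 of 49 had one, against 28.6% of genes. The CB-839 and DON lists gave 0 of 49 each, against 0.643% and 0.21% of genes, but these lists held 117 and 33 peaks in all, where the vehicle list held 9681 and the glutamine-free list 6687. A missing peak there cannot be told apart from the shortness of the list.

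Ncl carried a vehicle peak of 3036 bases (chr1:86358054-86361089, mm10) and a glutamine-free one of 4463 bases over the same start. Polr1b carried 3749 bases in the vehicle list (chr2:129099191-129102939) and 298 in the glutamine-free list, and Nop56 3617 and 2364 bases. Both lists had a peak at 18 members, the vehicle list alone at 12, the glutamine-free list alone at 2 (Dkc1 and Wdr43), and neither at 17. Of member promoters with a vehicle peak 60% also had one without glutamine, against 58.8% of all genes with a vehicle peak. Members with a peak in the vehicle list alone had a median log2 fold change of -0.61 without glutamine at 48 h, those with a peak in both of -0.30 and those with neither of -0.37. With DON at 48 h these groups had medians of -1.09, -1.14 and -0.97. The 2 members with a peak in the glutamine-free list alone had medians of -0.26 without glutamine and -1.61 with DON. Differences between the peak groups were not tested. With the upper scoring part of each list alone, the counts were 17 for vehicle and 5 without glutamine. A shorter list can also lower the share of all genes with a peak. That share is not given here, so these counts do not set the members apart.

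H3K27me3 was rare at these promoters. It overlapped 1 member in the vehicle list (Heatr1), against 10.6% of genes, 3 with CB-839 (Grwd1, Nob1 and Heatr1), against 11%, 2 without glutamine (Grwd1 and Heatr1), against 7.2%, and 0 with DON, against 3.74%. The lists held 13556, 12417, 8795 and 3533 peaks in that order. The Heatr1 peak in the vehicle list spanned 4134 bases (chr13:12390082-12394215) and ended before the annotated gene, which begins at 12395027.

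**Figure D5:**
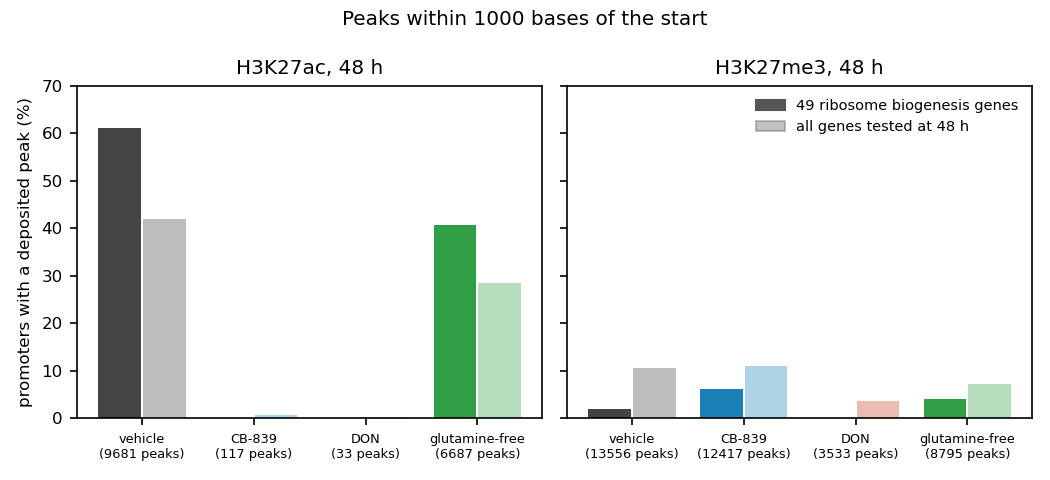
Percent (y axis) of the 49 members and of all 16173 genes tested at 48 h whose promoter window overlaps a deposited H3K27ac or H3K27me3 peak, by treatment (x axis). For H3K27ac the vehicle bars stand at 61.2% and 42% and the glutamine-free bars at 40.8% and 28.6%; the CB-839 and DON lists held 117 and 33 peaks.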

How the data were processed

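RNA-seq of 52 libraries and CUT&RUN of 20 samples at 48 h were measured. The authors made whole-number counts per gene with featureCounts 2.0.1 on read pairs over GENCODE M25 exons (mm10), per the file headers; that command sets no strand, although the labels' protocols describe stranded libraries. The submitters' processing notes name STAR, Bowtie2, MACS2, deepTools and FastQC, giving no version. The deposited peak lists, 1 per treatment and mark, merge 2 replicates at an irreproducible discovery rate (IDR) of 0.05. Each peak carries a deposited signal and score, the authors' own values, used here only within a list.

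Low-count genes were removed by group, TMM factors computed, and edgeR 4.0.16 quasi-likelihood tests run in R 4.3.3 with Benjamini-Hochberg adjustment at 0.05. Unstimulated and vehicle libraries shared 1 fit, the 16 libraries of a time 1 fit each, and the 32 of 24 and 48 h the fit for differences between times; 18317, 18274, 16269, 16173 and 17257 genes were tested (activation, 4 h, 24 h, 48 h, difference). The test was tried on simulated counts first. TPM used the deposited exon lengths. Depth was 25.6 to 51 M counts per library. No 2 replicates agreed within sampling noise, so all were kept. Columns of no sample used numbered 0.

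The members, lists and motifs were chosen with earlier results of these data known. Values in every library were printed for 12 genes (Ncl, Npm1, Fbl, Nop56, Dkc1, Polr1b, Rrn3, Heatr1, Bop1, Ddx21, Nolc1 and Lyar); the 3 highest and 3 lowest members by log2 fold change of the main comparisons were named, with any member called against the majority, the members highest and lowest per length, and up to 2 genes of smallest adjusted p per other list. Rrp12, Grwd1, Polr1c and Nob1 by library, and the members named beside their role or complex, were chosen after their values were seen. So were Mxd1, Mxd3, Mxi1 and Mycn at 24 h.

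Pairing by replicate letter was checked by correlating deviations from group means over tested genes of at least 5 CPM. All same-letter correlations exceeded 0.1 in 7 comparisons. At 4 h these were vehicle with CB-839 (0.43 to 0.68) and with DON (0.18 to 0.65). At 24 h they were vehicle with CB-839 (0.55 to 0.68) and with DON (0.25 to 0.58), CB-839 with DON (0.36 to 0.56), and DON with glutamine-free medium (0.14 to 0.56). At 48 h it was CB-839 with DON (0.17 to 0.27). With all tested genes, low counts included, the criterion held at 24 h for CB-839 (0.15 to 0.20) and DON (0.13 to 0.24) with vehicle and for no other pair; the minimum of 5 CPM was chosen after the blocked calls were known. What the letters stand for is not stated, and the fit without the block is the one reported. Alternatives were RLE scaling, library totals, no low-count filter, DESeq2 1.42.0, the letter as a block, a fit of all 52 libraries or of the 8 compared, each library left out, and for peaks an IDR of 0.01, a window of 2500 bases, a larger overlap and, chosen after seeing the data, the upper part of each list by score.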

Additional observations from a re-analysis of the deposited data

Results flagged for a closer look

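The 12 genes printed by library and the members' share of counts were searched for a library far from the other 3 of its group, in 169 groups of 4; chance alone picks out about 1 in 20 groups. Library D of DON at 24 h stood above its mates for Npm1 (3524 CPM against 2591 to 2693), Nop56 (687 against 558 to 575), Rrn3 (132 against 109 to 110), Ddx21 (1033 against 834 to 851) and the share of counts of all 49 genes (2.43% against 1.99% to 2.05%). Library D without glutamine at 48 h was highest for Ncl (3262 CPM against 3137 to 3147) and Heatr1 (298 against 285 to 287). Library C with DON at 48 h was highest for Npm1 (2549 CPM), library B with CB-839 at 48 h for Nolc1 (871 CPM against 839 to 842). Lowest in their groups were Nop56 in library D with CB-839 at 24 h (738 CPM against 751 to 752), Polr1b in vehicle library C at 24 h (240 CPM against 262 to 265) and Lyar in vehicle library D at 48 h (365 CPM against 403 to 409).

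The DON effect differed between 24 h and 48 h for 43 of the 49 members by the test of the difference itself. Named among them were Dkc1 (-1.23), Nop58 (-1.09), Nolc1 (-0.99) and, upward, Polr1c (0.46), as differences of log2 fold changes. The glutamine-free effect differed for 19 members, with Ddx10 (-0.51), Ddx21 (-0.47) and Npm1 (-0.42) named.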

How the results depend on the processing

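Of the alternative values for counts of members called or with a promoter peak, 709 kept within 1.5 times the reported count and 72 did not. For single named members 2873 values kept direction and side of the threshold, 52 gained a call, 81 lost one and 0 reversed. The cause of the moves was not tested. The counts below are members called, with the reported count in brackets.

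RLE scaling and DESeq2 each gave 1 higher for vehicle at 24 h against 4 h (3). Without the low-count filter 15 were lower for vehicle at 48 h against 24 h (25), 2 higher without glutamine at 4 h (4), and 8 lower for the glutamine-free difference between times (19). With library totals CB-839 gave 5 higher (0) and 5 lower (1) at 4 h, 2 lower at 24 h (1) and 1 higher at 48 h (0). They also gave 1 higher for DON at 24 h (0) and 2 at 48 h (1), 2 higher for DON against CB-839 at 24 h (0) and at 48 h (1), and 11 higher without glutamine at 24 h (7). DESeq2 gave 2 lower with CB-839 at 24 h (1) and 9 at 48 h (5). The fit of all 52 libraries gave 0 lower with CB-839 at 4 h and 24 h (1 each), 1 higher without glutamine at 4 h (4) and 3 at 24 h (7), 2 higher for glutamine-free medium against CB-839 at 24 h (7), and 9 lower for its difference between times (19).

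With the replicate block, 3 were lower with CB-839 at 4 h (1) and 4 at 24 h (1), and 1, Polr1c, was higher for DON against vehicle and against CB-839 at 24 h (0 each); the block changed no other count by over 1.5 times. The 8 libraries compared gave 2 higher (0) and 4 lower (1) with CB-839 at 4 h and 3 lower at 48 h (5). With the block as well they gave 7 higher and 11 lower with CB-839 at 4 h, 4 higher (0) and 8 lower (1) at 24 h, 0 lower at 48 h (5), and 1 higher for DON against vehicle and against CB-839 at 24 h. At 48 h the correlations between same-letter libraries of treatment and vehicle ran from -0.47 to 0.42, so there the letters gave no pairing.

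Leaving out 1 library gave 1 to 4 higher for vehicle at 24 h against 4 h, with 1 lacking vehicle library C of 4 h, 0 to 1 higher and 15 to 30 lower at 48 h against 24 h, 0 to 1 lower with CB-839 at 4 h, and 2 to 7 higher without glutamine at 4 h. It gave 0 to 4 lower with CB-839 at 24 h, 0 to 1 higher with DON at 24 h against vehicle and against CB-839, 0 to 2 higher and 4 to 11 lower with CB-839 at 48 h, and 1 to 2 higher for the DON difference between times.

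For promoter peaks, an IDR of 0.01 gave 1 member for H3K27me3 with CB-839 (3) and 0 without glutamine (2), and left no H3K27ac peak of vehicle, CB-839 or glutamine-free medium, so no value. Peaks covering at least 0.5 of the window gave 0 for H3K27me3 in vehicle (1), CB-839 (3) and glutamine-free medium (2), and a window of 2500 bases gave 3 in vehicle. The upper part of each list by score gave 17 for H3K27ac in vehicle (30) and 5 without glutamine (20), and 1 each for H3K27me3 with CB-839 and without glutamine. The shares of all genes under these settings are not given.

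The effect of depth on the member calls was not tested; the shallowest library, D of DON at 24 h with 25.6 M counts, is also one that stood apart from its group. The peak lists of CB-839 and DON for H3K27ac are too short to compare, and the number of libraries, 4 a group, sets the SEs.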
